A study of Arabidopsis thaliana with 44 samples.

Results

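The 7 genes AT3G45730, AT5G11460, AT5G48020, AT5G67460, AT2G18600, AT4G22960 and AT1G20180 are protein-coding Arabidopsis thaliana loci that the gene table used here lists by locus number, with neither a gene symbol nor a role. They are 7 of 13355 genes measured by a probe set annotated to 1 locus, and each is read by 1 probe set (252539_at, 250372_at, 248738_at, 246994_at, 265926_at, 254287_at and 261243_at in that order). They lie on chromosomes 3, 5, 5, 5, 2, 4 and 1 in the same order. The loci were selected on measured values of these same arrays, namely log2 rises in wild-type seedlings after gamma rays or HZE (high charge and energy particles, here accelerated iron nuclei). Those WT rises are therefore given as a description with no test, and tests are given only for other comparisons. Where such a comparison shares arrays with the selection, this is said beside it. The selection set no numerical threshold, so there are no genes just inside or outside one.

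Ionizing radiation breaks both strands of DNA. In plants the kinase ATM senses such breaks and passes the signal on by phosphorylating other proteins, among them the transcription factor SOG1, which raises many repair and cell cycle genes within hours. Gamma rays deposit their energy sparsely through tissue, whereas heavy nuclei leave dense tracks of damage. The atm-1 line carries a mutant ATM gene.

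Whole seedlings were profiled on 44 Affymetrix arrays in 22 groups of 2 replicates, and each array held RNA pooled from 30 to 40 plants. The atm-1 groups were atm-1 seedlings taken at 1.5, 6, 12 and 24 h after 30 Gy of HZE or after 100 Gy of gamma, and unirradiated atm-1 seedlings of day 1 and of day 2. The wild-type (WT) groups were taken at 1.5, 3, 6, 12 and 24 h after the same doses, with unirradiated WT seedlings of both days. Plants were 5 days old at irradiation and 6 days old at 24 h and in the day 2 controls, and they grew at 21°C under a 16 h day. HZE was given over about 12 minutes in 2 runs and gamma over 15 minutes. The labels do not say which run a sample came from, nor whether the 2 replicates of a group were separate cultures, so p-values measure the spread between these pools only.

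Sampling clock times differed between the radiations. After HZE, plants were taken at 2:39 pm for the 1.5 h group, 4:09 pm for 3 h, 7:24 pm for 6 h, 1:09 am for 12 h and 1:09 pm for 24 h. After gamma, they were taken at 10:10 am for 1.5 h, 11:40 am for 3 h, 2:55 pm for 6 h, 8:40 pm for 12 h and 8:40 am for 24 h. Unirradiated plants came from 10:45 am of day 1 and 9:15 am of day 2. The gamma 1.5, 3 and 24 h groups were taken within an hour of their controls. In every other comparison of irradiated with unirradiated plants, radiation and clock time cannot be told apart. Comparisons of atm-1 with WT after the same treatment hold the clock time fixed.

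Array medians lay between 5.73 and 5.98 on the log2 scale, and the array at 5.73, atm-1 gamma 6 h replicate 1, stood below the next at 5.82. Replicates correlated at r = 0.989 to 0.997 over all genes. ATM itself has no probe set annotated to a single gene, which left the genotype labels unchecked on that gene. Of the marker lists, 2 of 8 root genes, EXPA7 and EXPA18 (root hair expansins), and 0 of 10 green tissue and 0 of 5 seed genes were measured. In bulk RNA, fewer cells of a type and less RNA per cell cannot be told apart.

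In unirradiated seedlings none of the 7 genes was called different between the genotypes. Over the 8 unirradiated arrays AT3G45730 lay between 4.82 and 5.10, AT5G11460 between 4.90 and 5.37, AT5G48020 between 6.46 and 7.27, and AT5G67460 between 5.62 and 6.07. AT2G18600 lay between 5.84 and 6.09, AT4G22960 between 5.05 and 5.67, and AT1G20180 between 3.14 and 3.43. All values here are log2 expression values, and levels of different genes are not compared with each other because each probe set has its own scale. Differences of atm-1 minus WT over both days were -0.10 to 0.11, and limma called 0 of 7 genes at an adjusted p under 0.05, against 1.29% of all genes called either way. None of the 7 passed at an unadjusted p under 0.05. Day 2 minus day 1 differences were -0.26 to 0.27, again with 0 of 7 called by limma, against 27.5% of all genes called either way, and 2 genes passed at an unadjusted p under 0.05. The WT day 1 arrays were the controls of the contrasts that chose the genes, so these tests are not independent of the selection. The root marker EXPA18 was lower in unirradiated atm-1 than in unirradiated WT, by -0.54 (adjusted p 0.0101), and EXPA7 differed by -0.55 (adjusted p 0.0848).

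**Figure D1:**
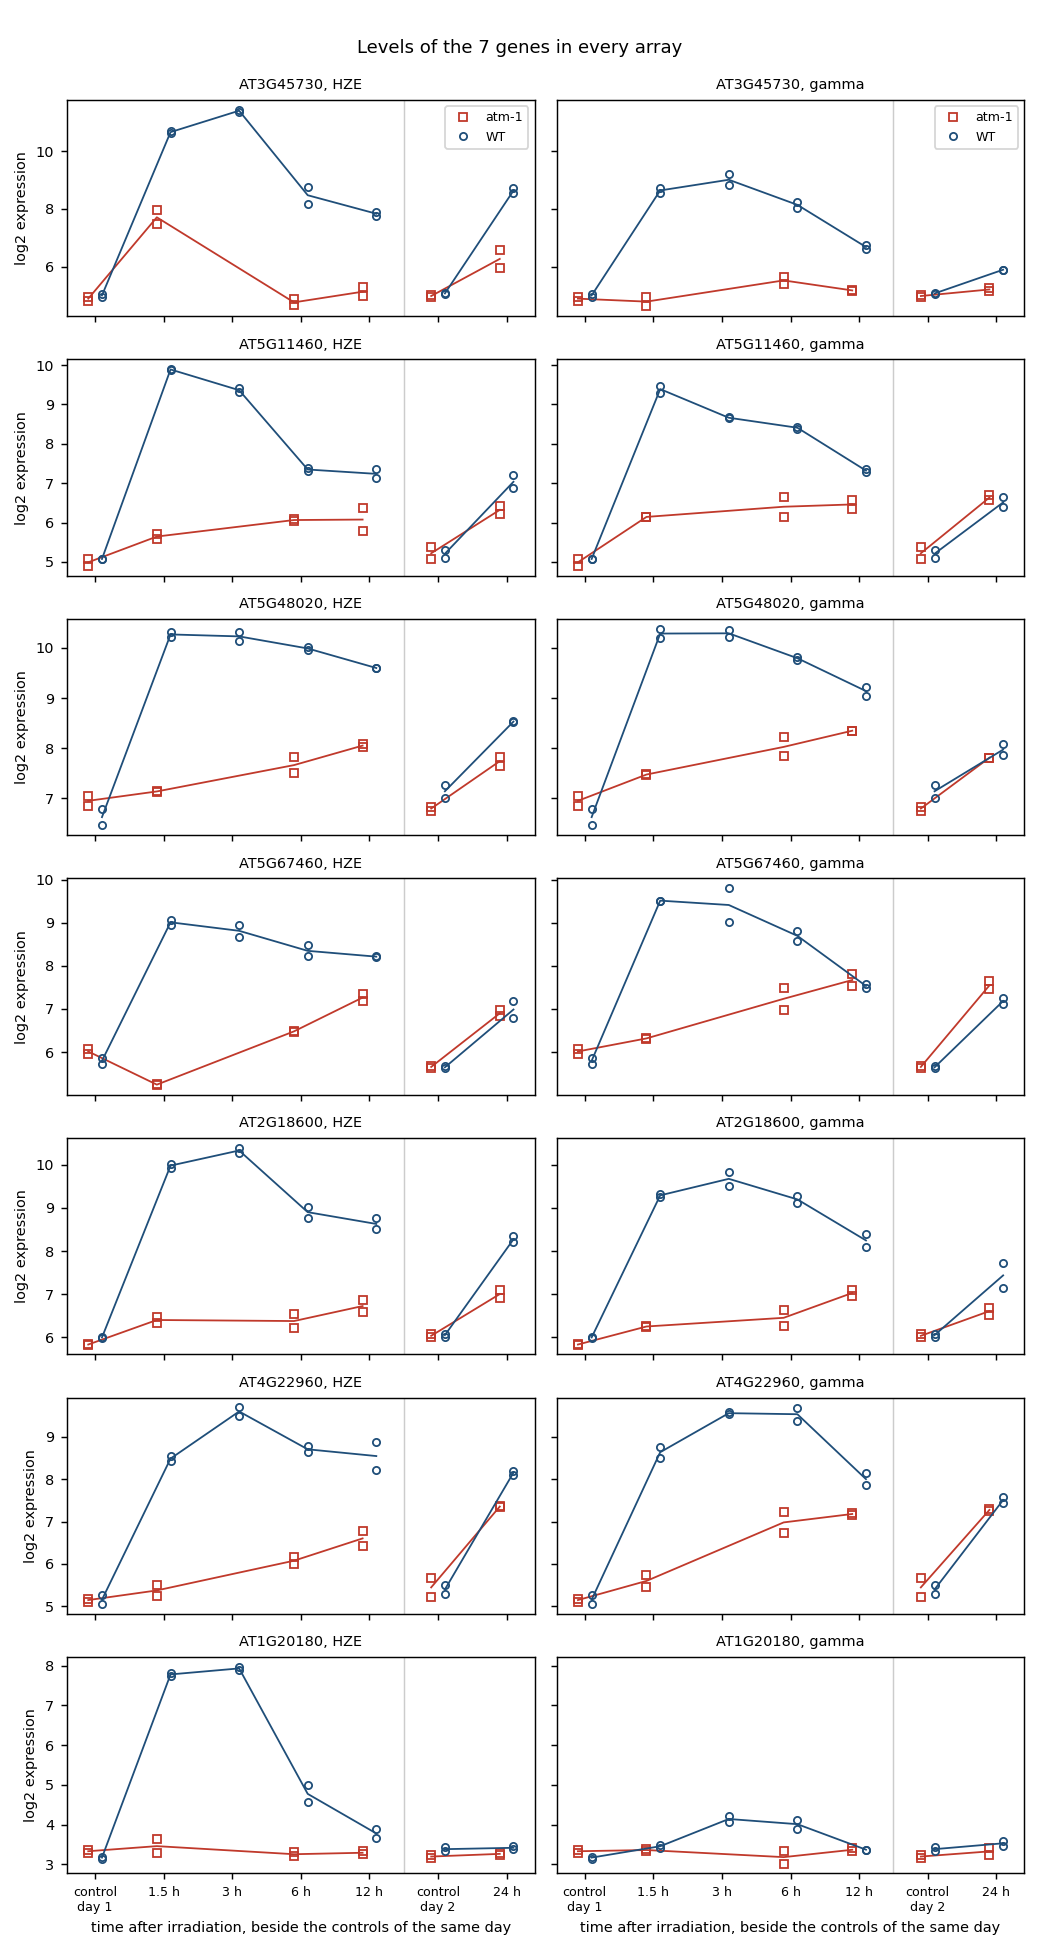
Log2 expression of each of the 7 genes (rows) in every array against the time after irradiation, with HZE in the left column and gamma in the right, squares for atm-1, circles for WT and lines through the means of 2 replicates. A grey line separates the day 1 controls and the times compared with them from the day 2 controls and 24 h. The WT points of 6 genes stand far above the unirradiated points at 1.5 h in both columns, AT1G20180 does so only in the HZE column, and AT3G45730 is the gene whose atm-1 points reach 7.95 and 7.46 in the HZE 1.5 h group.

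AT3G45730 had the widest range of the 7 genes, 6.64 log2 units between its highest and lowest group means. In HZE-irradiated WT seedlings its 2 replicates read 10.69 and 10.62 after 1.5 h, 11.37 and 11.43 after 3 h, 8.19 and 8.76 after 6 h, 7.90 and 7.77 after 12 h and 8.55 and 8.71 after 24 h. The HZE 3 h level was a log2 change of 6.40 (84.3-fold) over the WT day 1 controls, which read 5.07 and 4.94, and at 1.5 h the change was 5.66 (50.4-fold). The 24 h level stood 0.80 above the 12 h level, so the decline after 3 h did not continue to the end. In gamma-irradiated WT seedlings the same gene read 8.55 and 8.73 after 1.5 h, 8.82 and 9.20 after 3 h, 8.04 and 8.23 after 6 h, 6.74 and 6.61 after 12 h and 5.90 and 5.89 after 24 h. Its largest change after gamma was 4.01 at 3 h (16.1-fold), and it declined at each later time.

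AT5G11460 was highest at the first sampling in both WT series. The HZE series read 9.89 and 9.88 after 1.5 h, 9.32 and 9.41 after 3 h, 7.31 and 7.38 after 6 h, 7.35 and 7.12 after 12 h and 7.20 and 6.87 after 24 h in WT. The gamma series read 9.48 and 9.30 after 1.5 h, 8.65 and 8.67 after 3 h, 8.38 and 8.43 after 6 h, 7.28 and 7.36 after 12 h and 6.39 and 6.64 after 24 h in WT. The 1.5 h changes were 4.81 after HZE (28.1-fold) and 4.31 after gamma (19.9-fold) over WT day 1 controls at 5.07 and 5.08, and the gamma change ranked 2 among all 13355 genes.

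AT5G48020 kept a plateau in WT over the first 2 samplings, with overlapping replicates of the 4 highest groups. In the HZE series it read 10.22 and 10.32 after 1.5 h, 10.33 and 10.14 after 3 h, 10.02 and 9.96 after 6 h, 9.59 and 9.61 after 12 h and 8.55 and 8.52 after 24 h. In the gamma series it read 10.38 and 10.19 after 1.5 h, 10.36 and 10.22 after 3 h, 9.82 and 9.77 after 6 h, 9.05 and 9.23 after 12 h and 8.07 and 7.87 after 24 h. Changes at 1.5 h were 3.65 after HZE (12.5-fold) and 3.66 after gamma (12.7-fold) over WT day 1 controls at 6.79 and 6.46.

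AT5G67460 is 1 of the 2 genes whose highest WT level came after gamma and not after HZE, the other being AT5G48020. Its WT replicates in the HZE series read 8.95 and 9.08 after 1.5 h, 8.96 and 8.67 after 3 h, 8.48 and 8.22 after 6 h, 8.23 and 8.20 after 12 h and 7.18 and 6.79 after 24 h. In the gamma series they read 9.52 and 9.51 after 1.5 h, 9.80 and 9.03 after 3 h, 8.58 and 8.82 after 6 h, 7.48 and 7.59 after 12 h and 7.24 and 7.12 after 24 h. The gap of 0.77 between the 2 replicates at gamma 3 h was the largest for this gene, whose median gap was 0.14. Changes at 1.5 h were 3.22 after HZE (9.29-fold) and 3.72 after gamma (13.2-fold) over WT day 1 controls at 5.87 and 5.72.

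AT2G18600 peaked at 3 h in both WT series. The HZE series read 9.93 and 10.02 after 1.5 h, 10.26 and 10.39 after 3 h, 8.77 and 9.03 after 6 h, 8.75 and 8.50 after 12 h and 8.20 and 8.34 after 24 h. The gamma series read 9.25 and 9.32 after 1.5 h, 9.51 and 9.83 after 3 h, 9.27 and 9.11 after 6 h, 8.09 and 8.40 after 12 h and 7.72 and 7.15 after 24 h. Peak changes were 4.32 after HZE and 3.67 after gamma (12.7-fold) over WT day 1 controls at 6.00 and 6.01.

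AT4G22960 reached its highest WT levels later than 1.5 h. In the WT HZE series it read 8.42 and 8.55 after 1.5 h, 9.69 and 9.50 after 3 h, 8.77 and 8.63 after 6 h, 8.22 and 8.87 after 12 h and 8.11 and 8.20 after 24 h. In the WT gamma series it read 8.76 and 8.51 after 1.5 h, 9.53 and 9.58 after 3 h, 9.37 and 9.68 after 6 h, 7.86 and 8.14 after 12 h and 7.58 and 7.43 after 24 h. The groups WT HZE 3 h, WT gamma 3 h and WT gamma 6 h formed the top of its order and overlapped with each other. Changes were 4.44 at HZE 3 h (21.6-fold), 4.40 at gamma 3 h (21.0-fold) and 4.37 at gamma 6 h (20.7-fold) over WT day 1 controls at 5.05 and 5.26.

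AT1G20180 had a smaller change after gamma than after HZE in WT at each of the first 4 samplings. In the WT HZE series it read 7.81 and 7.74 after 1.5 h, 7.97 and 7.89 after 3 h, 4.56 and 4.99 after 6 h, 3.66 and 3.90 after 12 h and 3.38 and 3.46 after 24 h. In the WT gamma series it read 3.49 and 3.42 after 1.5 h, 4.21 and 4.07 after 3 h, 4.12 and 3.90 after 6 h, 3.37 and 3.37 after 12 h and 3.60 and 3.46 after 24 h. The 1.5 h change was 4.61 after HZE (24.4-fold) and 0.29 after gamma (1.22-fold), and the gamma series was highest at 3 h with a change of 0.97 (1.96-fold). The WT day 1 controls read 3.20 and 3.14. The file gives no detection calls, so whether values near 3.1 to 3.6 lie above background was not tested.

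For every one of the 7 genes both WT arrays at 1.5 h stood above both day 1 control arrays after HZE, a pattern that 33% of all genes share, and after gamma, a pattern shared by 25.9%. These contrasts chose the genes, so nothing is read from these counts. The median change of the 7 genes in WT after HZE was 3.97 at 1.5 h, 4.32 at 3 h, 2.90 at 6 h, 2.63 at 12 h and 1.83 at 24 h. After gamma it was 3.64 at 1.5 h, 3.67 at 3 h, 3.17 at 6 h and 2.24 at 12 h.

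Both measured root markers fell in WT at 1.5 h after either radiation, while the median of the members rose. The summed linear level of the 2 measured root markers lay between 61.2 and 62.3 in WT at HZE 1.5 h and between 70.4 and 75.0 at gamma 1.5 h, against 121 to 130 in the WT day 1 controls. EXPA7 fell by 1.00 after HZE and by 0.83 after gamma, and EXPA18 fell by 1.07 after HZE and by 0.73 after gamma (limma adjusted p 4.38e-04, 0.00883, 1.29e-06 and 0.00116 in that order). Of all genes, 20.6% were called lower after HZE and 8.84% after gamma at this time. The median WT change of the 2 root markers was -0.88, -0.52, -0.45 and 0.22 at 3, 6, 12 and 24 h after HZE. After gamma it was -0.72, -0.17, 0.11 and -0.35 at the same times. In atm-1 the summed level was 60.5 to 67.3 at HZE 1.5 h and 94.8 to 99.3 at gamma 1.5 h, against 65.6 to 81.7 in its day 1 controls. The part of tissue makeup in the members' values was not tested.

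WT seedlings at 24 h after gamma and their day 2 controls chose none of the genes, and 6 of the 7 were still higher there. The exception was AT1G20180, whose arrays at 3.60 and 3.46 stood just above its control arrays at 3.34 and 3.43, a change of 0.15 (95% interval -0.10 to 0.40, limma adjusted p 0.43). AT4G22960 read 7.58 and 7.43, against 5.50 and 5.30 in the day 2 controls, a rise of log2 2.11 (SE 0.18, 4.31-fold, adjusted p 6.09e-11). AT5G67460 rose by 1.54 (SE 0.17, 2.91-fold), AT2G18600 by 1.38 (SE 0.15, 2.61-fold) and AT5G11460 by 1.30 (SE 0.15, 2.47-fold). AT5G48020 rose by 0.83 (SE 0.13, 1.78-fold) and AT3G45730 by 0.82 (SE 0.18, 1.77-fold). Adjusted p-values of these 5 lay between 1.37e-08 and 4.36e-04. Of all genes 14.1% were called higher in this comparison.

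AT3G45730 had the largest change of the 7 genes at 1.5 h after HZE in atm-1. Its atm-1 replicates in the HZE series read 7.95 and 7.46 after 1.5 h, 4.66 and 4.87 after 6 h, 5.28 and 4.98 after 12 h and 6.58 and 5.95 after 24 h. The atm-1 controls read 4.96 and 4.82 on day 1 and 5.01 and 4.95 on day 2. AT3G45730 thus rose by log2 2.82 at 1.5 h (SE 0.18, 7.05-fold, limma adjusted p 6.74e-14), with both arrays above both controls, and ranked 33 from the top among 13355 genes. The call held without each of the 4 arrays in turn. At 6 h it was back among the controls, with a change of -0.13 (95% interval -0.49 to 0.23, adjusted p 0.699), and at 12 h the change was 0.24 (adjusted p 0.435). At 24 h it rose again, by 1.28 over the day 2 controls (SE 0.18, 2.44-fold, adjusted p 2.20e-05). The series had 2 high times with low values between them, and the 2 replicates at 24 h differed by 0.63, the widest gap of this gene. The high times fell at 2:39 pm and 1:09 pm, and the low ones at 7:24 pm and 1:09 am. Time after irradiation and clock time cannot be told apart here.

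AT5G67460 fell at 1.5 h after HZE in atm-1. It read 5.25 and 5.23 after 1.5 h, 6.49 and 6.47 after 6 h, 7.35 and 7.18 after 12 h and 6.83 and 6.97 after 24 h, and the day 1 and day 2 controls read 5.95 and 6.07, and 5.63 and 5.68. The 1.5 h arrays were the lowest of all 44 for this gene, a fall of log2 0.77 (SE 0.17, adjusted p 4.11e-04), while 17.6% of all genes were called lower. At 6 h it rose by 0.47 (adjusted p 0.0437), a call that was lost without any 1 of the 4 arrays (adjusted p 0.0933 to 0.215). It rose by 1.25 at 12 h (2.38-fold, adjusted p 1.33e-06) and by 1.24 or 2.37-fold at 24 h (adjusted p 1.82e-05).

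AT5G11460 and AT2G18600 rose at all 4 times after HZE in atm-1. AT5G11460 read 5.59 and 5.71 after 1.5 h, 6.09 and 6.05 after 6 h, 6.37 and 5.79 after 12 h and 6.23 and 6.42 after 24 h, against 4.90 and 5.08 in day 1 and 5.37 and 5.07 in day 2 controls. Its rises were 0.65, 1.07, 1.09 and 1.10 in order of time (SE 0.15 each, adjusted p 2.51e-06 to 8.68e-04). AT2G18600 read 6.47 and 6.34 after 1.5 h, 6.53 and 6.23 after 6 h, 6.87 and 6.58 after 12 h and 7.10 and 6.90 after 24 h, against 5.84 and 5.84 in day 1 and 6.01 and 6.07 in day 2 controls. Its rises were 0.57, 0.54, 0.89 and 0.97 (SE 0.15 each, adjusted p 5.67e-05 to 0.00844). The 6 h rise of AT2G18600 was not called without atm-1 HZE 6 h replicate 1 (0.39, adjusted p 0.159).

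AT5G48020 and AT4G22960 were not called at 1.5 h after HZE in atm-1 and rose at each later time. AT5G48020 read 7.15 and 7.13 after 1.5 h, 7.51 and 7.82 after 6 h, 8.08 and 8.02 after 12 h and 7.83 and 7.65 after 24 h, against 6.84 and 7.06 in day 1 and 6.84 and 6.76 in day 2 controls. Its changes were 0.19, 0.71, 1.10 and 0.95 (SE 0.13 each, adjusted p 0.283 at 1.5 h and 6.31e-08 to 5.56e-05 later). AT4G22960 read 5.25 and 5.50 after 1.5 h, 6.00 and 6.16 after 6 h, 6.77 and 6.43 after 12 h and 7.37 and 7.34 after 24 h, against 5.11 and 5.18 in day 1 and 5.67 and 5.23 in day 2 controls. Its changes were 0.23, 0.93, 1.45 and 1.90 (SE 0.18 each, adjusted p 0.367 at 1.5 h and 7.10e-08 to 1.45e-04 later), so its largest atm-1 change came last. The 24 h change of AT4G22960 ranked 18 from the top among all genes.

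AT1G20180 was not called at any time after HZE in atm-1. It read 3.29 and 3.63 after 1.5 h, 3.21 and 3.30 after 6 h, 3.25 and 3.33 after 12 h and 3.24 and 3.29 after 24 h, against 3.29 and 3.37 in day 1 and 3.25 and 3.15 in day 2 controls. Its changes were -0.07 to 0.13, with adjusted p 0.483 to 0.939.

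In numbers, limma called 3 of the 7 genes higher and 1 lower in atm-1 at 1.5 h after HZE, where 19.3% of all genes were called higher. It called 5 higher at 6 h (12.2% of all genes), 5 at 12 h (8.72%) and 6 at 24 h (1.13%). The share called higher among all genes fell over these times while the count among the 7 genes did not. At 24 h every gene but AT1G20180 was called. The times up to 12 h share the day 1 controls, so their counts are not independent of each other. The 24 h group was set against the day 2 controls, so the fall in the share does not rest on 1 set of controls. EXPA18 rose by 0.50 at 12 h (adjusted p 0.0263) and was not called at the other 3 times (adjusted p 0.543 to 0.995), and its part in the counts was not tested.

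After gamma, 5 of the genes were called higher in atm-1 at 6, 12 and 24 h alike, namely AT4G22960, AT5G67460, AT5G11460, AT5G48020 and AT2G18600. AT4G22960 read 5.74 and 5.46 after 1.5 h, 6.72 and 7.24 after 6 h, 7.21 and 7.15 after 12 h and 7.30 and 7.25 after 24 h. It changed by 0.45 at 1.5 h (95% interval 0.09 to 0.81, adjusted p 0.16), and rose by 1.83, 2.03 and 1.83 at 6, 12 and 24 h (3.56-fold, 4.08-fold and 3.55-fold, adjusted p 1.38e-10 to 5.75e-09). AT5G67460 read 6.32 and 6.31 after 1.5 h, 6.98 and 7.50 after 6 h, 7.54 and 7.80 after 12 h and 7.64 and 7.46 after 24 h. It changed by 0.30 at 1.5 h (adjusted p 0.42), or by 0.48 over the controls of both days (adjusted p 0.0213), and rose by 1.22, 1.66 and 1.89 afterwards (adjusted p 3.02e-10 to 2.97e-06), so its highest change came at 24 h.

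AT5G11460 was the gene with the largest early gamma response in atm-1. Its atm-1 replicates read 6.15 and 6.14 after 1.5 h, 6.15 and 6.65 after 6 h, 6.58 and 6.34 after 12 h and 6.70 and 6.57 after 24 h. It rose by 1.15 at 1.5 h (SE 0.15, 2.22-fold, adjusted p 6.95e-06) and by 1.41, 1.47 and 1.42 later (adjusted p 7.08e-09 to 6.00e-08), which is nearly level from 6 h on. AT5G48020 read 7.46 and 7.49 after 1.5 h, 7.84 and 8.21 after 6 h, 8.35 and 8.35 after 12 h and 7.82 and 7.81 after 24 h. It rose by 0.52 at 1.5 h (SE 0.13, adjusted p 0.00816) and by 1.08, 1.40 and 1.01 later (adjusted p 2.89e-10 to 2.01e-07). The 1.5 h call was lost without atm-1 gamma 1.5 h replicate 1 (0.54, adjusted p 0.0516), without its replicate 2 (0.51, adjusted p 0.0849) and without atm-1 control day 1 replicate 1 (0.42, adjusted p 0.163).

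AT2G18600 and AT3G45730 changed least from 6 h on among the 6 genes called at some time after gamma in atm-1. AT2G18600 read 6.27 and 6.24 after 1.5 h, 6.27 and 6.64 after 6 h, 7.09 and 6.97 after 12 h and 6.53 and 6.69 after 24 h. Its changes were 0.42, 0.62, 1.19 and 0.57 (SE 0.15 each, adjusted p 0.126, 0.00326, 3.53e-07 and 0.00464), highest at 12 h. Its call at 6 h was lost without atm-1 gamma 6 h replicate 2 (0.44, adjusted p 0.0681) and with only the arrays of the groups compared (0.62, adjusted p 0.0618), and its call at 24 h without atm-1 gamma 24 h replicate 2 (0.49, adjusted p 0.0629). AT3G45730 read 4.62 and 4.95 after 1.5 h, 5.65 and 5.39 after 6 h, 5.16 and 5.19 after 12 h and 5.15 and 5.27 after 24 h. Its changes were -0.10, 0.63, 0.28 and 0.23 (SE 0.18 each, adjusted p 0.879, 0.00883, 0.29 and 0.407). The 6 h call was lost without atm-1 gamma 6 h replicate 1, the array with the lowest median (0.50, adjusted p 0.133), and without atm-1 control day 1 replicate 2 (0.56, adjusted p 0.0845).

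AT1G20180 read 3.39 and 3.33, 3.02 and 3.35, 3.41 and 3.33, and 3.41 and 3.25 at 1.5, 6, 12 and 24 h after gamma in atm-1. Its changes were -0.15 to 0.13 with adjusted p 0.435 to 0.956. Over the 7 genes limma called 2 higher at 1.5 h, against 2.96% of all genes, 6 at 6 h (7.54%), 5 at 12 h (11.4%) and 5 at 24 h (12.8%). The same control arrays serve all times up to 12 h, so these counts are not independent of each other. EXPA18 rose in the same atm-1 gamma series by 0.53 at 1.5 h (adjusted p 0.0421) and by 0.55 at 6 h (adjusted p 0.0111), while its later changes, 0.39 (12 h) and -0.27 (24 h), were not called (adjusted p 0.0815, then 0.242). EXPA7 was not called there (adjusted p 0.226 to 0.619). The part of tissue makeup in these changes was not tested.

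**Figure D2:**
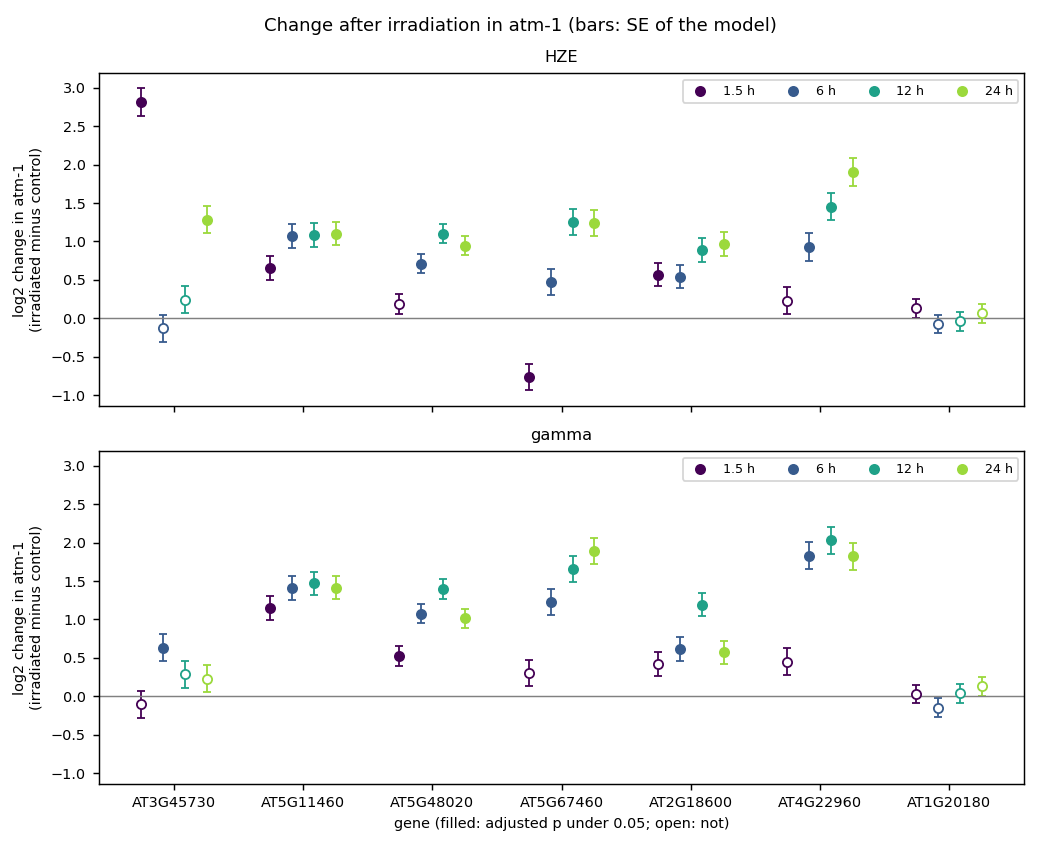
Log2 change of each gene in atm-1 (irradiated minus unirradiated of the same day) at 1.5, 6, 12 and 24 h, with HZE above and gamma below. Points are differences of means of 2 replicates, bars are the SE of the model, and filled points have an adjusted p under 0.05. AT3G45730 stands out at HZE 1.5 h with 2.82, AT5G67460 lies at -0.77 in the same group, and AT4G22960 reaches 1.83 to 2.03 from 6 h on after gamma.

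The direct comparison of irradiated atm-1 with irradiated WT asks how the levels depend on ATM, at a fixed clock time and without the controls. At 1.5 h after HZE, where the WT arrays had chosen the genes, the differences of atm-1 minus WT were -2.95 for AT3G45730, -4.24 for AT5G11460, -3.13 for AT5G48020, -3.77 for AT5G67460, -3.57 for AT2G18600, -3.11 for AT4G22960 and -4.32 for AT1G20180. At 1.5 h after gamma they were -3.85, -3.24, -2.81, -3.20, -3.03, -3.03 and -0.10 in the same order of genes. These are descriptions. Although AT3G45730 rose in atm-1 at 1.5 h after HZE, its arrays there, at 7.95 and 7.46, stayed well below those of WT, at 10.69 and 10.62. At 6 h after gamma, also a description, the differences ran between -2.74 for AT2G18600 and -0.83 for AT1G20180.

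At 6 h after HZE all 7 genes were lower in atm-1 than in WT, against 4.56% of all genes called lower. The WT HZE 6 h arrays are among those whose rises chose the genes. This count and the adjusted p-values below are therefore not independent of the selection, and nothing is read from them. AT3G45730 read 4.66 and 4.87 in atm-1, against 8.19 and 8.76 in WT, a log2 difference of -3.71 (SE 0.18, limma adjusted p 9.60e-16). AT4G22960 differed by -2.63, AT2G18600 by -2.52, AT5G48020 by -2.33 and AT5G67460 by -1.87. AT1G20180 read 3.21 and 3.30 in atm-1, against 4.56 and 4.99 in WT, a difference of -1.52, and AT5G11460 differed least, by -1.28. The adjusted p-values of the 7 genes lay between 9.60e-16 and 2.95e-07.

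At 12 h after HZE all 7 genes were again lower in atm-1, against 4.4% of all genes. The WT HZE 12 h arrays also belong to the rises that chose the genes. Here too the count, the adjusted p-values and the calls with 1 array left out are not independent of the selection, and nothing is read from them. The differences were -2.70 for AT3G45730, -1.94 for AT4G22960, -1.90 for AT2G18600, -1.55 for AT5G48020, -1.16 for AT5G11460, -0.95 for AT5G67460 and -0.49 for AT1G20180 (adjusted p 2.79e-12 to 0.00848). The AT1G20180 call was lost without WT HZE 12 h replicate 2 (-0.37, adjusted p 0.165) and without atm-1 HZE 12 h replicate 1 (-0.45, adjusted p 0.0988). The other 6 calls held without each of the 4 arrays in turn.

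At 24 h after HZE the differences are a description, because high WT values in this group were known when the genes were chosen. They were -2.36 for AT3G45730, -1.27 for AT2G18600, -0.80 for AT4G22960, -0.79 for AT5G48020, -0.71 for AT5G11460, -0.15 for AT1G20180 and -0.09 for AT5G67460. AT2G18600 read 7.10 and 6.90 in atm-1, against 8.20 and 8.34 in WT, without overlap. The fit called 5 of the 7 lower here, and 1.62% of all genes, and nothing is read from that count.

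At 12 h after gamma limma called 5 of the 7 genes lower in atm-1, against 1.13% of all genes. The WT gamma 12 h arrays are among those whose rises chose the genes. This count and the rank and adjusted p-values that follow are therefore not independent of the selection, and nothing is read from them. AT3G45730 read 5.16 and 5.19 in atm-1, against 6.74 and 6.61 in WT, a difference of -1.50 (SE 0.18, adjusted p 1.04e-06), the third lowest among 13355 genes. AT2G18600 differed by -1.22, AT5G11460 by -0.86, AT4G22960 by -0.82 and AT5G48020 by -0.79 (adjusted p 2.83e-06 to 0.00431). AT5G67460 differed by 0.14 (95% interval -0.21 to 0.48, adjusted p 0.786), with arrays at 7.54 and 7.80 in atm-1 and at 7.48 and 7.59 in WT that overlap. The AT4G22960 call was lost without WT gamma 12 h replicate 2 (-0.68, adjusted p 0.136) and without atm-1 gamma 12 h replicate 2 (-0.79, adjusted p 0.0709). The root marker EXPA18 was lower in atm-1 here too, by -0.55 (adjusted p 0.0499), as it was in unirradiated seedlings, while at gamma 1.5 h it was higher in atm-1 by 0.51 (adjusted p 0.0377). Its part in the members' differences was not tested.

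At 24 h after gamma 2 of the 7 genes were called lower in atm-1, against 1.98% of all genes. AT2G18600 differed by -0.83 (SE 0.15, adjusted p 9.72e-04) and AT3G45730 by -0.68 (SE 0.18, adjusted p 0.022). The AT2G18600 call was lost without WT gamma 24 h replicate 1 (-0.54, adjusted p 0.159), and the AT3G45730 call without any 1 of the 4 arrays (adjusted p 0.061 to 0.24). Intervals of the other 5 differences reached from -0.59 to 0.71. With each genotype's day 2 control taken off, the differences in change were -0.81 for AT2G18600 and -0.60 for AT3G45730, and -0.28 to 0.35 for the others. There limma called 0 of 7 (lowest adjusted p 0.156), 2 genes passed at an unadjusted p under 0.05, and 0.202% of all genes were called either way. Without WT gamma 24 h replicate 2 the difference in change of AT2G18600 was -1.10 (adjusted p 0.0159).

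**Figure D3:**
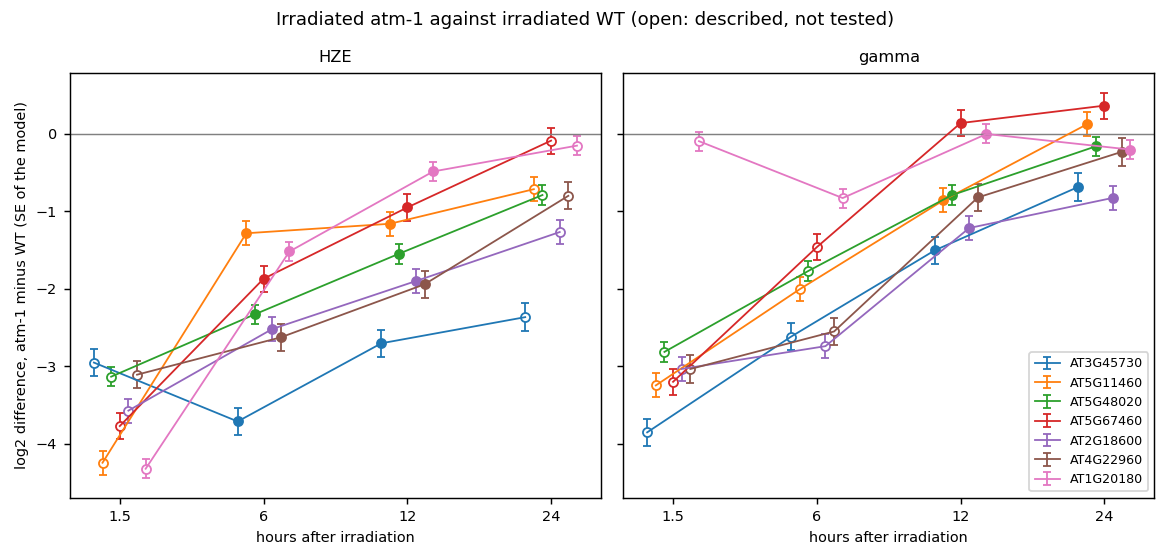
Log2 difference of irradiated atm-1 minus irradiated WT against hours after irradiation on an axis of evenly spaced times, HZE left and gamma right, 1 colour for each gene, bars for the SE of the model. Open points are descriptions and filled points were tested. The filled points at HZE 6 h, HZE 12 h and gamma 12 h share WT arrays with the selection, and nothing is read from their tests. Differences lie between -4.32 and -2.95 at HZE 1.5 h, and at gamma 24 h between -0.83 and 0.36.

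HZE and gamma groups could be compared within 1 genotype only where their clock times were near, which pairs different times after irradiation and different doses. In WT, HZE 6 h (7:24 pm) was set against gamma 12 h (8:40 pm). AT3G45730 read 8.19 and 8.76 after HZE, against 6.74 and 6.61 after gamma, a difference of 1.79 (SE 0.18, limma adjusted p 2.45e-09). AT1G20180 read 4.56 and 4.99 after HZE, against 3.37 and 3.37 after gamma, a difference of 1.40 (SE 0.12, adjusted p 2.16e-10). AT5G48020, AT5G67460, AT4G22960 and AT2G18600 were higher after HZE by 0.85, 0.82, 0.70 and 0.65 (adjusted p 3.93e-06 to 0.00315). AT5G11460 differed by 0.03 (95% interval -0.29 to 0.34) with overlapping arrays. In all 6 of 7 genes were called higher, against 10.8% of all genes. The 2 WT groups compared are among those whose rises chose the genes. This count and these adjusted p-values are therefore not independent of the selection, and nothing is read from them. Both root markers were lower after HZE in this pairing, EXPA7 by -0.61 (adjusted p 0.0479) and EXPA18 by -0.65 (adjusted p 0.00244), and their part in the members' differences was not tested. Without WT gamma 12 h replicate 1 the calls of AT2G18600 (0.49, adjusted p 0.0645) and AT4G22960 (0.56, adjusted p 0.0756) were lost, and without WT HZE 6 h replicate 2 that of AT2G18600 (0.52, adjusted p 0.0517).

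In atm-1 the genes called in the same pairing were lower after HZE, and the difference from WT was not tested. HZE 6 h minus gamma 12 h was -1.19 for AT5G67460, -1.10 for AT4G22960, -0.69 for AT5G48020 and -0.65 for AT2G18600 (adjusted p 3.09e-06 to 0.00208), so 4 of 7 were lower after HZE, against 9.4% of all genes. AT3G45730, AT5G11460 and AT1G20180 differed by -0.41, -0.40 and -0.11 and were not called (adjusted p 0.109, 0.0709 and 0.651). AT5G11460 was called with cyclic loess (-0.42, adjusted p 0.0382), with the filter on dim genes (adjusted p 0.0447) and with only the arrays compared (adjusted p 0.0432), and AT3G45730 with only the arrays compared (adjusted p 0.0332). The AT2G18600 call was lost without atm-1 HZE 6 h replicate 2 (-0.50, adjusted p 0.075).

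At HZE 1.5 h (2:39 pm) against gamma 6 h (2:55 pm) in atm-1 the genes divided. AT3G45730 read 7.95 and 7.46 after HZE, against 5.65 and 5.39 after gamma, a difference of 2.19 (SE 0.18, 4.55-fold, adjusted p 1.35e-11), where 23.2% of all genes were called higher. AT5G67460 read 5.25 and 5.23 after HZE, against 6.98 and 7.50 after gamma, a difference of -1.99 (SE 0.17, adjusted p 3.57e-11). AT4G22960, AT5G48020 and AT5G11460 were also lower after HZE, by -1.60, -0.89 and -0.76 (adjusted p 6.90e-09 to 1.49e-04), where 16.6% of all genes were called lower. AT2G18600 differed by -0.05 and AT1G20180 by 0.28 (adjusted p 0.837 and 0.0749). The AT1G20180 difference was called without atm-1 gamma 6 h replicate 2 (0.44, adjusted p 0.0128) and without atm-1 HZE 1.5 h replicate 1 (0.45, adjusted p 0.0153). EXPA18 was lower after HZE here by -0.70 (adjusted p 5.77e-04), and its part was not tested. In WT the same difference, a description, was 3.77 for AT1G20180 and 2.52 for AT3G45730, and it was -1.05 for AT4G22960.

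**Figure D4:**
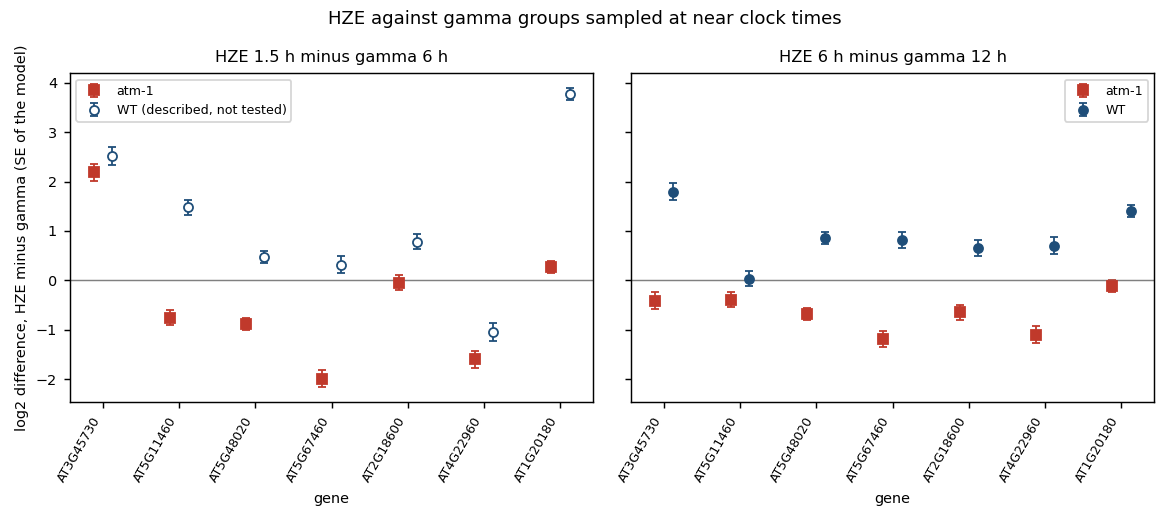
Log2 difference of HZE minus gamma for each gene between groups sampled at near clock times, HZE 1.5 h minus gamma 6 h on the left and HZE 6 h minus gamma 12 h on the right, squares for atm-1, circles for WT, bars for the SE of the model. Open circles were not tested. The filled circles share arrays with the selection, and nothing is read from their tests. AT3G45730 lies above 0 in both genotypes on the left (2.19 in atm-1 and 2.52 in WT), and on the right the 7 atm-1 points lie between -1.19 and -0.11.

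The genes followed each other across the 22 group means to different degrees. Among the 15 pairs without AT1G20180 the Pearson correlation was 0.709 to 0.966 with a median of 0.923, which is a description over groups that share controls, clock times and the selection itself. Within the 10 atm-1 groups the median of these pairs was 0.806, and the 5 pairs with AT3G45730 gave -0.36 to 0.25. Within the 12 WT groups the lowest of the 15 was 0.802. The 6 pairs with AT1G20180 gave 0.532 to 0.790 over all groups.

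In the order of the 22 group means, many neighbours did not differ beyond their 2 replicates. Replicate ranges of neighbouring groups overlapped in 9 of 21 neighbouring pairs for AT5G48020 and AT2G18600, in 12 for AT3G45730, AT5G11460 and AT5G67460, in 13 for AT4G22960 and in 16 for AT1G20180. The highest group was WT HZE 3 h for AT3G45730, AT2G18600, AT4G22960 and AT1G20180, WT HZE 1.5 h for AT5G11460, WT gamma 3 h for AT5G48020 and WT gamma 1.5 h for AT5G67460. The lowest was an unirradiated group for 5 genes, atm-1 HZE 6 h for AT3G45730 (4.76) and atm-1 HZE 1.5 h for AT5G67460 (5.24).

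Likeness was measured as the Pearson correlation with each other measured gene over the 22 group means. The genes most like AT3G45730 were AT5G18490 (r = 0.954), AT1G22510 (0.953) and AT1G49050 (0.952), and those most like AT5G11460 were AT5G27760 (0.963), AT5G51740 (0.960) and SAY1 (0.960). AT2G47680 came first for AT5G48020 (0.977), AT5G67460 (0.968) and AT4G22960 (0.979). For AT2G18600 it was AT4G25330 (0.975), and for AT1G20180 AT1G02670 (0.947). AT1G10050, AT2G47680 and AT5G23910 were each among the 10 most alike genes of 4 of the 7.

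Of 47 known damage response genes only 7 had a probe set of their own here. At 1.5 h after HZE in WT 2 of these 7 were called higher, against 20.9% of all genes, and 2 lower, against 20.6%, with a median change of -0.09 beside 0.00 over all genes. At 1.5 h after gamma 2 were higher, against 8.3% of all genes, and 0 lower, with a median of 0.29 beside 0.01. The 2 that rose are ATMND1, a meiotic recombination gene, by 4.01 after HZE and 3.56 after gamma (adjusted p 9.47e-19 and 5.75e-17), and ATLIG4, the DNA ligase of end joining, by 1.18 and 0.67 (adjusted p 1.69e-07 and 0.00209). RECQ4A, a DNA helicase, fell by 0.61 after HZE in WT and by 0.62 in atm-1 (adjusted p 1.56e-04 and 1.58e-04), and AT4G32700 fell by 0.42 after HZE in WT (adjusted p 0.0177). ATMND1 in atm-1 changed by 0.17 at 1.5 h after HZE (adjusted p 0.487) and rose by 0.86 at 1.5 h after gamma (adjusted p 6.06e-04). Of 18 genes of the ubiquitin and RUB pathways, 3 were measured. At 1.5 h in WT 2 of them were lower after HZE, against 20.6% of all genes, and the median change of the 3 was -0.42. After gamma their changes were -0.01 to 0.00 (adjusted p 0.968 to 0.994).

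Genes next to the 7 on the chromosome were read where they had a probe set. Of 14 such neighbours 6 were measured, and 5 of them changed by no more than 0.19 in WT at 1.5 h after either radiation, none being called. AT1G20160, beside AT1G20180, rose by 0.83 after HZE (adjusted p 1.07e-04) and fell by 0.64 after gamma (adjusted p 0.00639).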

How the data were processed

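The authors deposited log2 expression values for 22810 probe sets on 44 Affymetrix arrays, 2 for each of 22 groups. GCOS 1.2, RMA and the affy package are named in the submitters' processing notes, with no further settings. The values were used as deposited. Probe sets were named through the platform's annotation table and a RefSeq gene table: 13513 had 1 gene, 503 several and 8730 none, and 64 controls were left out. One probe set was kept for each gene, that with the highest mean, leaving 13355 genes.

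A group-means model over all 44 arrays was fitted with limma 3.58.1 in R 4.3.3 (eBayes without trend, 22 residual degrees of freedom), so that 2 replicates a group share 1 estimate of spread. P-values were Benjamini-Hochberg adjusted over all 13355 genes, with 0.05 as the threshold of the adjusted p for a call. Intervals are 95% intervals of the model. Irradiated groups up to 12 h were set against day 1 controls and those at 24 h against day 2 controls. The number of arrays limits the precision.

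The members and lists were chosen with earlier results of these data known. The atm-1 minus WT differences at 24 h after HZE had been planned as a test and are given as a description. The named genes are the members, up to 4 members of each list with the largest change, neighbouring loci and the most alike genes. No 2 arrays held identical values. Replicate numbers were not used to pair the samples in the main fit. Of 231 correlations of replicate differences between groups 40 were over 0.1, with a median of 0.01 and a range of -0.17 to 0.24. These values cannot show whether replicates of some groups were paired. On simulated arrays the fit recovered 78 of 100 genes changed 1.5-fold in atm-1 gamma 1.5 h minus control, and 99 of 100 changed 2-fold. In atm-1 minus WT at HZE 12 h it recovered 72 of 100 and 98 of 100. False calls were 8 in the first comparison and 12 in the second. The simulated replicates were independent of each other, so the effect of dependent replicates was not tested. Alternatives were cyclic loess, a trend in the variance, every probe set, a filter on dim genes, controls of both days, only the arrays compared, a replicate block and leaving out each array.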

Additional observations from a re-analysis of the deposited data

Results flagged for a closer look

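AT5G67460 drew attention at 1.5 h after HZE because its arrays moved in opposite directions in the genotypes. Its change was -0.77 in atm-1 and 3.22 in WT, a difference of -3.99, with both atm-1 arrays below both atm-1 controls and both WT arrays above both WT controls. The WT change belongs to the values that chose the gene, so the difference was not tested.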

How the results depend on the processing

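Over the 40 comparisons, cyclic loess, a variance trend, every probe set, the filter on dim genes (which left out AT1G20180) and the replicate block kept each count or median within its class, and the replicate block changed 0 calls. With the replicate block, 2 genes were called in atm-1 at gamma 1.5 h, as without it. With controls of both days the AT1G20180 difference in change at gamma 12 h was 0.010, reversed against -0.16, the median of the 7 genes in WT at gamma 1.5 h was 3.40 against 3.64, and the median difference in change at HZE 12 h was -1.54 against -1.74. With only the arrays compared, 4 genes were called in atm-1 at gamma 1.5 h against 2, and 1 between control days against 0. The genes gained at gamma 1.5 h were AT2G18600 (0.42, adjusted p 0.0269) and AT4G22960 (0.45, adjusted p 0.0426), and between control days AT5G67460 (-0.26, adjusted p 0.0267). The causes were not tested. Leaving out 1 array gave the following ranges. In WT the median change was 2.08 to 2.28 at gamma 12 h and 1.66 to 1.99 at HZE 24 h. In atm-1, 1 to 2 genes were called at gamma 1.5 h and 3 to 4 at HZE 6 h (5 with all arrays). For atm-1 minus WT the gamma 6 h median was -2.26 to -1.75, and 0 to 1 genes were called at gamma 24 h (2 with all arrays) and 3 to 4 at HZE 24 h (5 with all arrays). For the difference in change the medians were -2.28 to -1.91 at gamma 6 h, -3.62 to -3.40 at HZE 1.5 h and -0.88 to -0.56 at HZE 24 h, and 0 to 1 genes were called at gamma 24 h. Between control days 0 to 1 were called. With 1 replicate left in a group, that array is assumed to vary like the other groups.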
